A study of Rattus norvegicus with 6 samples.

Results

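Pomc, somatostatin (Sst) and tyrosine hydroxylase (Th) are 3 products of neurons that lie beside or send axons to the median eminence, where nerve endings at the base of the hypothalamus release hormones into the vessels that supply the pituitary. They were taken from the count table by their rat Ensembl identifiers, ENSRNOG00000012686 for Pomc, ENSRNOG00000001837 for Sst and ENSRNOG00000020410 for Th, 3 of the table's 34510 rows. The names come with that list of identifiers. Neither the count table nor the reference gene table pairs any of the count table's identifiers with a symbol, so the names could not be checked here. RNA of the median eminence was sequenced in 3 libraries from S-D rats 1 day after the operation that the labels call PEL, and in 3 libraries from S-D rats labelled control. The labels do not spell out PEL, and do not give the age, the sex or whether controls had a sham operation. They also do not say whether each library came from its own animal, and the spread that p-values measure here may be technical. Library totals were between 16055170 and 17144108 assigned reads after PEL and between 13756297 and 16746441 in controls.

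Pomc encodes a precursor that enzymes cut into several peptides, among them ACTH, alpha-MSH and beta-endorphin. In the arcuate nucleus, just above the median eminence, its neurons restrain feeding through melanocortin receptors, and the same gene is expressed by corticotrophs and melanotrophs of the pituitary. Somatostatin from periventricular neurons reaches the pituitary through the median eminence and restrains growth hormone release, and other hypothalamic neurons, some of them in the arcuate nucleus, also make it. Tyrosine hydroxylase is the rate-limiting enzyme of catecholamine synthesis. Arcuate dopamine neurons use it to make the dopamine that holds back prolactin release. In bulk tissue, fewer cells of a type, less RNA per cell and a different share of neighbouring tissue in the sample cannot be told apart. Markers of the tissue were not examined, so that share was not tested.

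The stretches around the annotated start of the 3 genes are shown as a description of the genes. Any link between these sequences and the levels was not tested. Each runs from 150 bases before the start to the first 30 bases from the start on, in RefSeq's GRCr8 assembly, on the strand of the gene. The intervals are chr6:32659203-32659382 on the plus strand for Pomc, chr11:90461396-90461575 on the plus strand for Sst and chr1:207508189-207508368 on the minus strand for Th. These positions belong to the sequences and not to the counts, whose build is not given in the sources used here. Capitals mark the cAMP response element, written TGACGTCA, and the core of a TATA box, written TATAAA.
Pomc: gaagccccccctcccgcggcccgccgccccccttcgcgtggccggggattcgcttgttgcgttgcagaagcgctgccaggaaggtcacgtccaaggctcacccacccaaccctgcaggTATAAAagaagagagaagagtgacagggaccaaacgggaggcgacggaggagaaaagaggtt
Sst: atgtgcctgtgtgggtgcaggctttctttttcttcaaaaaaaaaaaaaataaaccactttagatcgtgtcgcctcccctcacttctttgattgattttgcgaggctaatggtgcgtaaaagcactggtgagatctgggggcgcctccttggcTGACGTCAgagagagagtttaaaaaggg
Th: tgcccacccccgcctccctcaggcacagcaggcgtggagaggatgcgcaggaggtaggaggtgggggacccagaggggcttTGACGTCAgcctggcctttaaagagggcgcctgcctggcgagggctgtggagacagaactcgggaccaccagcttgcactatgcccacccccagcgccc

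Sst held TGACGTCA at positions 3 to 10, counted from 1 at the start that the promoter table uses, and Th held it at positions -69 to -62. For Pomc and Th that start differs from the gene's end point in RefSeq's gene table. No start was checked against a measured start of transcription, so the positions in every gene, Sst included, hold for the promoter table's start alone. Whether the Sst element lies before or after the true start cannot be told here. Both elements are well known from the rat genes, and the motif was searched for that reason. It reads the same on both strands and occurred in 1.55% of 33469 promoter windows of this length. Its 5-base part TGACG, searched on both strands, lies within the longer motif in Sst and Th, was not found elsewhere in either window, and occurred in 15.5% of all windows. Pomc held TATAAA at positions -32 to -27, a motif found on either strand in 8.80% of windows and overlapping neither of the others. Only this exact string was searched, so the lack of a mark in Sst and Th does not show that they lack a TATA box. A match describes these letters only.

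After PEL, the mean levels of all 3 transcripts were lower than in controls, and none of the differences passed the test. Over all rows tested the median log2 fold change was -0.016, so a negative sign alone is common. Pomc had 0.851 of its control level (95% interval 0.705 to 1.03), Sst 0.808 (0.582 to 1.12) and Th 0.795 (0.464 to 1.36), as fitted folds of PEL over control. By edgeR's quasi-likelihood test with Benjamini-Hochberg adjustment over 17125 rows, 0 of the 3 were called at an adjusted p under 0.05, against 5.29% of all rows tested (4.22% called higher and 1.07% called lower). At an unadjusted p under 0.05 the count was also 0 of 3, against 22.6% of rows. The DESeq2 Wald test and limma-voom called 0 of 3 each, against 8.93% and 3.67% of the rows they tested. A p above the threshold does not show that the levels were alike: the intervals reach down to folds of 0.705, 0.582 and 0.464. The edgeR fit also takes the spread of a row as the same in both groups. For Th the SD of log2(CPM + 0.5) was 0.82 after PEL and 0.02 in controls. For Sst it was 0.49 and 0.06, and for Pomc 0.19 and 0.16, so the intervals of Th and Sst pool unequal spreads.

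Levels are given as CPM, reads of a gene relative to the reads of its library, scaled with TMM factors computed over all rows. They are not divided by transcript length, so levels of different genes are not set against each other. Counting intervals are exact 95% Clopper-Pearson intervals of a library's reads, and do not cover the copying of molecules by PCR or the spread between libraries.

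Pomc had 556, 426 and 492 CPM in PEL replicates 1, 2 and 3, from 8962, 6947 and 8362 reads, against 609, 507 and 616 CPM in control replicates 1, 2 and 3, from 8391, 8119 and 10387 reads. PEL replicates 2 and 3 lay below all controls, while PEL replicate 1 lay between the lowest control and the other controls, so the groups overlapped. Means were 491 ± 64.8 CPM after PEL and 577 ± 60.8 CPM in controls (SD, n = 3 each). The fitted log2 fold change of Pomc, -0.23 with an SE of 0.12, did not pass the test (edgeR adjusted p = 0.286). The spread was of similar size in both groups, with a coefficient of variation of 13.2% after PEL and 10.5% in controls. Control replicate 2 stood lowest of the controls, and without it the log2 fold change of Pomc was -0.32 (edgeR adjusted p = 0.278), against -0.13 without PEL replicate 2 (edgeR adjusted p = 0.520).

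Sst had 433, 237 and 423 CPM in PEL replicates 1, 2 and 3, from 6975, 3865 and 7193 reads, against 436, 442 and 474 CPM in control replicates 1, 2 and 3, from 6018, 7075 and 8002 reads. All PEL libraries lay below all controls, a separation found in this direction in 13.7% of the rows tested and in either direction in 30.0%. The gap was narrow: PEL replicate 1 and control replicate 1 had counting intervals of 422 to 443 and 425 to 448 CPM, which overlap. PEL replicate 2 stood far below the others, with a counting interval of 230 to 245 CPM. Means were 364 ± 110 CPM after PEL and 451 ± 20.5 CPM in controls (SD, n = 3 each). The fitted log2 fold change of Sst, -0.31 with an SE of 0.20, did not pass (edgeR adjusted p = 0.405). The mean of PEL replicates 1 and 3 was 1.80 times the level in PEL replicate 2. Without PEL replicate 2 the log2 fold change of Sst was -0.07 (95% interval -0.22 to 0.08, edgeR adjusted p = 0.602).

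Th had 23.8, 11.7 and 37.0 CPM in PEL replicates 1, 2 and 3, from 383, 191 and 629 reads, against 30.8, 30.2 and 30.2 CPM in control replicates 1, 2 and 3, from 425, 483 and 510 reads. PEL replicates 1 and 2 lay below all controls and PEL replicate 3 lay above them. Counting intervals were 21.4 to 26.3, 10.1 to 13.5 and 34.2 to 40.0 CPM in the PEL libraries and do not overlap, so the PEL libraries differed by more than counting error. The highest PEL library had 3.16 times the CPM of the lowest, and the highest control 1.02 times that of the lowest control. Means were 24.2 ± 12.6 CPM after PEL and 30.4 ± 0.360 CPM in controls (SD, n = 3 each). For Th the fitted log2 fold change was -0.33 with an SE of 0.34 and did not pass either (edgeR adjusted p = 0.595). The coefficient of variation of 1.18% in controls is below the 4.60% that counting error alone gives at these reads, so the control libraries lay closer together than their counts can resolve. Single libraries set the Th result: without PEL replicate 2 the log2 fold change was 0.01 (95% interval -0.40 to 0.42, edgeR adjusted p = 0.989), and without PEL replicate 3 it was -0.78 (95% interval -1.40 to -0.16, unadjusted p = 0.0212, edgeR adjusted p = 0.104).

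**Figure D1:**
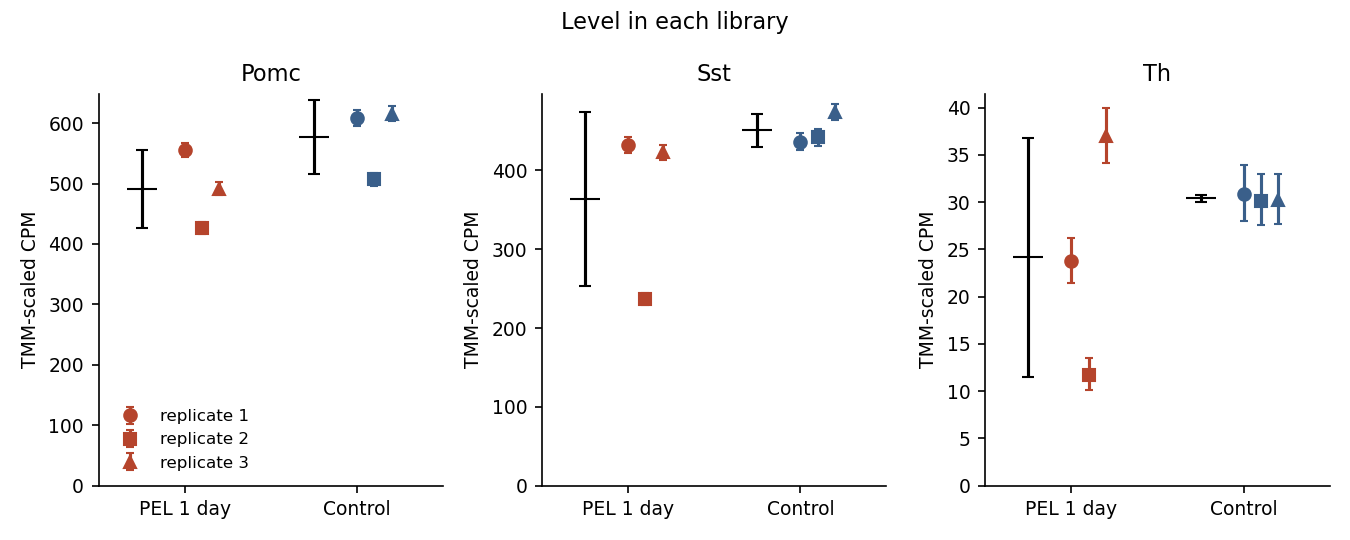
TMM-scaled CPM of Pomc, Sst and Th (1 panel each, linear axis from 0) in each PEL library (red) and each control library (blue), with 95% counting intervals and, in black, the group mean ± SD of 3 libraries. PEL replicate 2 (square) is lowest in all panels, at 426, 237 and 11.7 CPM, and PEL replicate 3 (triangle) is above all controls for Th only.

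Tested as single values, mean log2 CPM differed between PEL and control libraries by -0.24 for Pomc, -0.36 for Sst and -0.48 for Th. Exact two-sided permutation tests over the 6 libraries gave p = 0.2, 0.1 and 0.4, and 0.3, 0.3 and 0.4 after Benjamini-Hochberg adjustment over the 3 transcripts. With 3 libraries against 3 the smallest p is 0.1, so this design could not pass 0.05. The log2 difference is larger than the fitted log2 fold change for Sst and Th because a mean of logs gives more weight to the low value of PEL replicate 2.

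**Figure D2:**
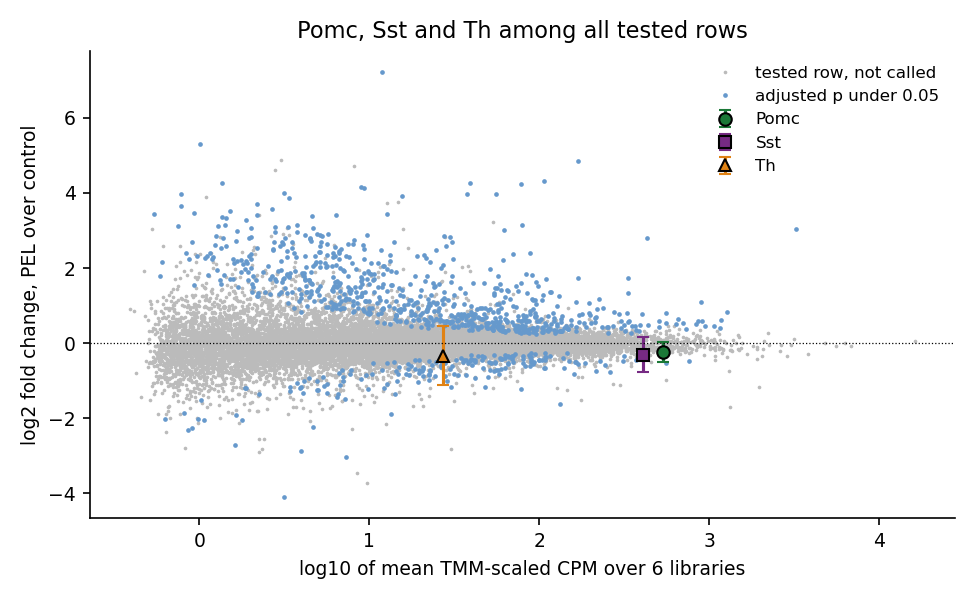
Fitted log2 fold change of PEL over control against log10 mean TMM-scaled CPM for the 17125 rows tested, with called rows in blue and Pomc, Sst and Th with their 95% intervals. All 3 intervals cross 0, and the fold changes of -0.23, -0.31 and -0.33 lie among rows that were not called.

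Among all rows tested, 19.8% had a lower log2 fold change than Pomc, 14.3% a lower one than Sst and 13.0% a lower one than Th. In size, without regard to direction, the change of Pomc exceeded that of 60.7% of rows, the change of Sst that of 70.3% and the change of Th that of 72.5%. These places describe estimates with wide intervals, and Th and Sst ranked higher by their spread among PEL libraries. The SD of log2(CPM + 0.5) over the PEL libraries was 0.82 for Th, above 97.9% of rows, 0.49 for Sst, above 91.9%, and 0.19 for Pomc, above 56.1%, with a median of 0.17 over all rows tested. In controls the same SD was 0.02 for Th, 0.06 for Sst and 0.16 for Pomc, above 2.87%, 29.2% and 66.2% of rows, with a median of 0.11.

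Taken library by library, the change from the control mean of log2(CPM + 0.5) differed most in PEL replicate 2. There Pomc lay at -0.43, Sst at -0.93 and Th at -1.34, and 12.9%, 3.00% and 1.00% of the rows tested lay lower. In PEL replicate 1 the changes were -0.05 for Pomc, -0.06 for Sst and -0.35 for Th, with 44.0%, 42.8% and 15.9% of rows lower. PEL replicate 3 had -0.23 for Pomc, -0.09 for Sst and 0.28 for Th, with 16.2%, 32.4% and 86.5% of rows lower. Sst was thus near its control level in PEL replicates 1 and 3, whereas Th was lower than in controls in PEL replicate 1 and higher in PEL replicate 3. PEL replicate 2 was also the library in which rows in general had the widest range of changes: the 5th to 95th percentiles of all rows ran from -0.76 to 1.02 there, from -0.66 to 0.78 in PEL replicate 1 and from -0.51 to 0.60 in PEL replicate 3. The part of this wider change in the low Sst and Th of PEL replicate 2 was not tested.

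**Figure D3:**
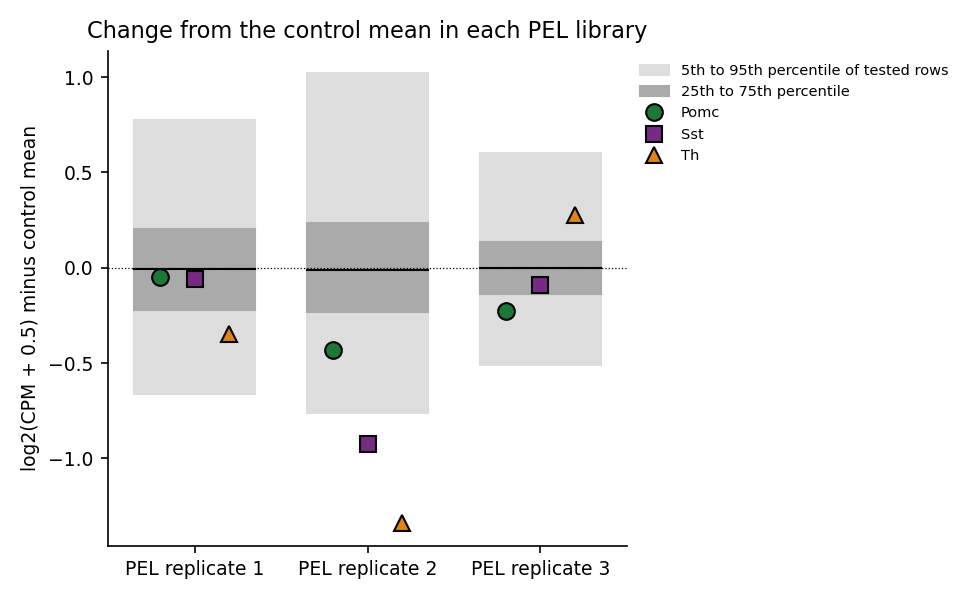
Change of Pomc, Sst and Th from the control mean, in log2(CPM + 0.5), in each PEL library, over bands that hold the 25th to 75th (dark) and 5th to 95th (light) percentiles of all 17125 rows tested, with the median as a black line. In PEL replicate 2, Sst at -0.93 and Th at -1.34 lie below the light band, which starts at -0.76, and Pomc at -0.43 lies inside it.

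Ratios of reads between the transcripts within a library do not depend on the scaling, and show whether the transcripts changed by unequal amounts. The log2 ratio of Sst to Pomc was -0.36, -0.85 and -0.22 in PEL replicates 1, 2 and 3, against -0.48, -0.20 and -0.38 in control replicates 1, 2 and 3. PEL replicate 2 lay below the controls and the other two PEL libraries lay within their range. The log2 ratio of Th to Pomc was -4.55, -5.18 and -3.73 in PEL replicates 1, 2 and 3, against -4.30, -4.07 and -4.35 in control replicates 1, 2 and 3, so that PEL libraries lay on both sides of the controls. The log2 ratio of Sst to Th was 4.19, 4.34 and 3.52 in PEL replicates 1, 2 and 3, against 3.82, 3.87 and 3.97 in control replicates 1, 2 and 3. Here too PEL libraries lay above and below all controls.

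Mean differences of these log2 ratios, PEL minus control, were -0.12 for Sst to Pomc, -0.25 for Th to Pomc and 0.12 for Sst to Th. Exact two-sided permutation tests gave p = 0.7, 0.7 and 0.6, each 0.7 after Benjamini-Hochberg adjustment over the 3 ratios. The smallest p this design allows is 0.1, so these tests could not pass 0.05 whatever the ratios. The spread between PEL libraries exceeded these differences, with SDs of 0.33, 0.73 and 0.44 after PEL and of 0.14, 0.15 and 0.08 in controls (n = 3 each). Without PEL replicate 2 the differences were 0.06, 0.10 and -0.04, each of the opposite sign.

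**Figure D4:**
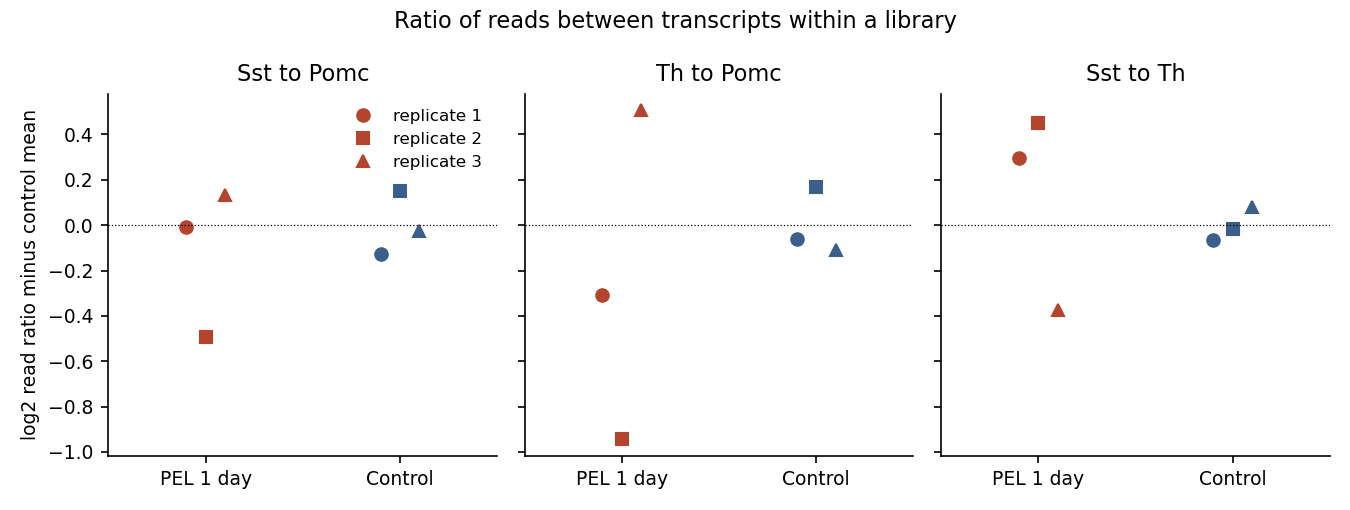
log2 ratio of reads between 2 transcripts within each library, minus its control mean, for Sst to Pomc, Th to Pomc and Sst to Th (1 panel each), PEL libraries in red and control libraries in blue. PEL libraries spread on both sides of 0 in all panels, from -0.94 to 0.51 for Th to Pomc.

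Across the 6 libraries, the row most like each transcript was sought by Pearson correlation of log2(CPM + 1) among 12545 other Ensembl rows with a mean of at least 5 CPM. These correlations describe 6 points in 2 groups that share their libraries, and with this many rows high values are common. The row most like Pomc was ENSRNOG00000013506 (r = 0.994), at 75.5, 65.6 and 70.5 CPM in PEL replicates 1, 2 and 3 and 77.7, 71.5 and 77.5 CPM in control replicates 1, 2 and 3. ENSRNOG00000007587 was most like Sst (r = 1.00 when rounded), with 39.2, 26.6 and 38.3 CPM in PEL libraries and 39.4, 39.4 and 41.1 CPM in controls. The row most like Th was ENSRNOG00000013555 (r = 0.998), with 23.1, 17.1 and 27.9 CPM in PEL libraries and 26.4, 25.6 and 26.3 CPM in controls. All 3 rows had their lowest value in PEL replicate 2, which follows from choosing them for their likeness. A correlation over 0.9 was found with 150 rows for Pomc, 483 rows for Sst and 340 rows for Th, or 1.20%, 3.85% and 2.71% of the rows compared. A correlation under -0.9 was found with 78, 337 and 341 rows.

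**Figure D5:**
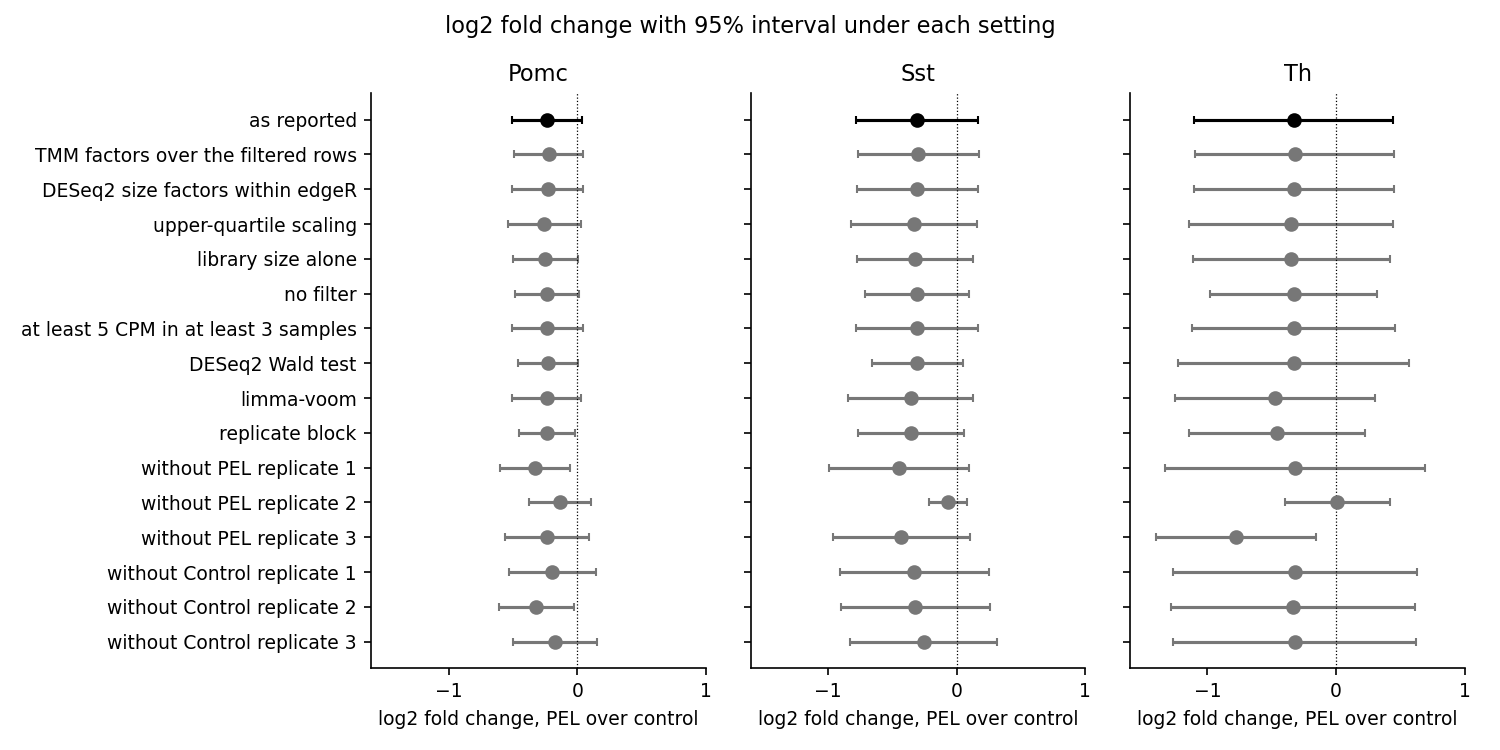
Log2 fold change of PEL over control with its 95% interval for Pomc, Sst and Th as reported (black) and under 15 other settings (grey). Without PEL replicate 2 the values move toward 0, to -0.13, -0.07 and 0.01, and without PEL replicate 3 Th stands at -0.78.

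Other scalings and filters on low counts gave log2 fold changes of -0.26 to -0.22 for Pomc, -0.33 to -0.30 for Sst and -0.35 to -0.32 for Th. Limma-voom gave -0.24 for Pomc, -0.36 for Sst and -0.47 for Th, and the replicate number as a block gave -0.24, -0.36 and -0.46. The adjusted p of Pomc, Sst and Th stayed above 0.05 in all 15 settings, with lowest values of 0.189, 0.256 and 0.104 (edgeR fits without 1 library). For Pomc the 95% interval lay below 0 without PEL replicate 1, without control replicate 2 and with the replicate number as a block, where the unadjusted p was 0.0250, 0.0370 and 0.0368 and the edgeR adjusted p was 0.189, 0.278 and 0.221.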

How the data were processed

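The authors deposited raw read counts per gene, whole numbers with no normalization, for the 6 libraries. HISAT2 2.0.5, featureCounts 1.5.0-p3 and DESeq2 1.16.1 are named in the submitters' processing notes. The build, annotation and strand setting behind the counts are not stated in these sources, and reads of overlapping or antisense genes cannot be told apart.

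Counts were tested with edgeR 4.0.16 in R 4.3.3: TMM factors over all 34510 rows, filterByExpr with minimum count 10, which all 3 transcripts passed, and the quasi-likelihood F test, two-sided, group as the only term. Standard errors are the log2 fold change over the square root of F. The fit was also run on counts simulated from these same libraries, with the same spread per row in both groups. That run does not cover the wider spread among the PEL libraries. Alternatives used DESeq2 1.42.0 and limma 3.58.1. Figures used matplotlib 3.10.9. Libraries of a group differed beyond sampling noise, with a chi-square per degree of freedom of 15.7 to 24.1 between PEL libraries and 4.50 to 7.83 between controls. Promoter sequences are RefSeq's, matched by symbol for 3 of 3 genes.

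The transcripts, lists and tests were chosen with earlier results of these data known. Planned lists of arcuate peptides, melanocortin, somatostatin receptor and catecholamine genes and cell type markers need symbols. None of the identifiers matched the reference table (0 of 47357 rows pair with them), so these lists, and the tissue's markers, were not examined. Named rows are the 3 transcripts and, for each, the 1 row most correlated with it.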

Additional observations from a re-analysis of the deposited data

How the results depend on the processing

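Pomc and Sst kept a negative log2 fold change and an adjusted p above 0.05 in all 15 alternatives, as did Th in 14. Leaving out 1 library gave -0.33 to -0.13 for Pomc, -0.45 to -0.07 for Sst and -0.78 to 0.0078 for Th, where 0.0078 came from leaving out PEL replicate 2, the library with the lowest Th. The differences in log2 ratio ranged from -0.25 to 0.06 for Sst to Pomc, -0.63 to 0.10 for Th to Pomc and -0.04 to 0.37 for Sst to Th. Adding 0.5 to counts gave -0.12, -0.25 and 0.12. A replicate block (the number in the labels) gave log2 fold changes of -0.24, -0.36 and -0.46 for Pomc, Sst and Th and called 545 rows over the whole table, against 906. The labels do not say that these numbers pair libraries, so the block was planned as an alternative only. Same-numbered libraries did not deviate together (correlations 0.004, -0.082 and -0.052). DESeq2's Wald test called 1635 rows, and fits without 1 library 173 to 2085. The share of calls that were higher was 79.7% as reported and lay between 67.2% without PEL replicate 3 and 93.1% without control replicate 1. Other scalings of the single CPM values, chosen after seeing the data, kept each sign. Th rested on 191 to 629 reads a library, so counting error is larger there than for Pomc and Sst.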
